A study of Mus musculus with 8 samples.

Results

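The LIF, JAK and STAT3 pathway was described through 10 genes, chosen as named components of it: Lif, Lifr, Il6st, Jak1, Jak2, Stat3, Socs3, Pim1, Pim3 and Gab1. They had 13 probes among the 55681 distinct probes of the array, and all 10 were among the 15182 genes tested of 21154 named genes. Lifr had 3 probes, Stat3 had 2 and each of the other genes had 1. The samples were 8 cultures of mouse embryonic stem (ES) cells, each hybridised to its own one-colour Agilent microarray, 2 in each of 4 groups. The groups were ERF labelled knockout cells given 4-hydroxytamoxifen (OHT) for at least 2 days, untreated labelled knockout cells, ERF wild type cells given OHT for at least 2 days, and untreated wild type cells. All 4 groups carried H-Ras-/- and N-Ras-/- and RERT ert/ert, an allele that supplies a tamoxifen-activated Cre from the locus of the large subunit of RNA polymerase II. The cells are built so that OHT leaves them without RAS, and since no group was designed to receive OHT and keep RAS, an effect of OHT itself and of RAS loss cannot be told apart. Each sample was a mix of 2 clones: pools A2 and B2 are labelled knockout, pools A1 and B1 are wild type, and each pool gave 1 OHT and 1 untreated array. ERF is an ETS family repressor of transcription, which leaves the nucleus when ERK phosphorylates it, and the design asks how the response to RAS loss differs when ERF is deleted.

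LIF is the cytokine that keeps mouse ES cells self-renewing in serum. It binds the receptor chain LIFR, which pairs with the shared chain gp130, the product of Il6st. The kinases JAK1 and JAK2 bound to these chains then phosphorylate the transcription factor STAT3, which enters the nucleus. SOCS3, an inhibitor whose gene STAT3 switches on, binds gp130 and the JAK kinases and ends the signal, while the adaptor GAB1 links the receptor to SHP2 and to the RAS and PI3K branches. All 4 groups were cultured on gelatin in 15% serum with 1000 units of LIF per ml, so the receptors had ligand from the medium in every sample.

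Levels are log2 signals relative to the array's 75th percentile, so 0 is that percentile. They compare arrays, not genes, because probes differ in brightness. Between 54.0% and 63.6% of spots per array were well above background and none was saturated. Patches of dim spots covered 0.0% to 3.17% of an array, most on pool A2 with OHT, and the levels below leave those spots out. Erf itself was at 3.81 and 5.26 in pools A2 and B2 with OHT and at 3.45 and 5.64 in the same pools untreated, against 4.98 and 4.92 in pools A1 and B1 with OHT and 5.09 and 5.43 untreated. Pool B2 thus stood among or above the wild type arrays although labelled knockout, and the place of the Erf probe relative to the deletion is unknown here. Of 10 ES cell markers 9 were well above background on all 8 arrays and Zfp42 was on 7. Zfp42 had no kept spot on pool A2 with OHT, so its level there is unknown.

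None of the 10 genes passed the test after OHT, in the labelled knockout or in the wild type. In limma on the 4 group means, 0 of 10 had an adjusted p under 0.05 in each of 5 comparisons, where 0.0% of the 15182 genes tested did. The comparisons were OHT against untreated in the labelled knockout and in the wild type, the difference of these effects, and the genotypes against each other (labelled knockout minus wild type), once with OHT and once untreated. Adjusted p-values of the 10 genes lay between 0.938 and 1.00, and none had an unadjusted p under 0.05, as did 586 genes (3.86%) after OHT in the labelled knockout, 906 (5.97%) in the wild type, 196 (1.29%) for the difference, 334 (2.2%) between genotypes with OHT and 206 (1.36%) untreated. That fit ignores that each pool gave an array of either treatment. With pools as blocks, dark patches left out and a trended, robust variance, called the paired fit here, 14.9% of genes passed in the labelled knockout, 17.9% in the wild type and 0.0% for the difference of the effects, and again 0 of the 10 genes did. At an unadjusted p under 0.05 that fit held 3 of the 10 in the labelled knockout, against 31.5% of all genes, 5 of the 10 in the wild type, against 32.5%, and 1 for the difference, against 9.04%. The median log2 change of the 10 was 0.05 in the labelled knockout and -0.07 in the wild type, beside -0.04 for all genes tested in each genotype.

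**Figure D1:**
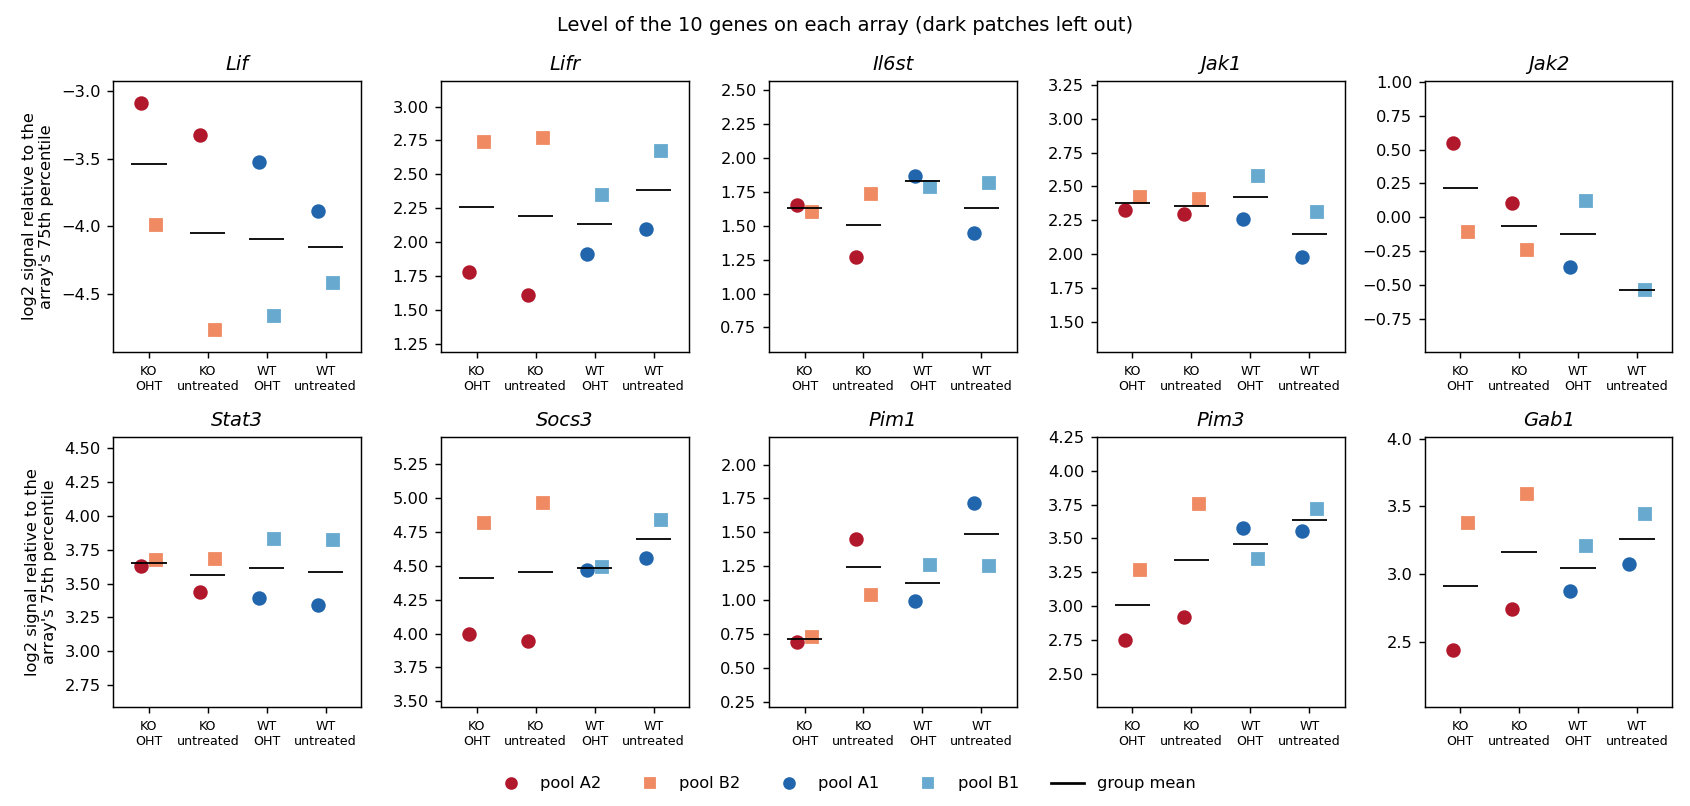
Level of each of the 10 genes on each array, as log2 signal relative to the array's 75th percentile (vertical axis), for the labelled knockout (KO) with OHT and untreated and the wild type (WT) with OHT and untreated. Points are arrays, marked by pool, and bars are group means; for Lifr, Socs3, Pim3 and Gab1 both arrays of pool A2 lie below the 6 others.

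The ligand gene Lif was near the detection limit. Its levels were -3.09 and -3.99 in pools A2 and B2 with OHT and -3.32 and -4.77 in these pools untreated, and -3.52 and -4.66 in pools A1 and B1 with OHT and -3.88 and -4.42 untreated. The probe was well above background on 5 of the 8 arrays, all 4 of the A pools and B2 with OHT, and not on B2 untreated or on either B1 array. Lif was thus higher in the A pools than in the B pools of its genotype, with or without OHT. The paired fit gave a log2 change after OHT of 0.51 in the labelled knockout (95% confidence interval -0.46 to 1.48, adjusted p = 0.454) and 0.06 in the wild type (-0.92 to 1.03, adjusted p = 0.946). These intervals are the widest of the 10 genes, and in pools A2 and A1 alone were both arrays well above background. Lif met the filter for testing only through the labelled knockout with OHT, where both arrays were well above background. The filter thus favoured a higher value in that group.

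Lifr, the specific receptor chain, differed more between pools than with OHT. On its brightest probe, A_55_P2159259, it was at 1.78 and 2.74 in pools A2 and B2 with OHT and 1.61 and 2.77 untreated, and at 1.91 and 2.35 in pools A1 and B1 with OHT and 2.09 and 2.67 untreated. The 4 B pool arrays were all above the 4 A pool arrays, whatever the genotype or treatment. After OHT the paired fit gave 0.07 in the labelled knockout (-0.14 to 0.29, adjusted p = 0.644) and -0.25 in the wild type (-0.47 to -0.04, adjusted p = 0.0989). The difference of these effects was 0.33 (0.02 to 0.63), with an unadjusted p of 0.0377 in limma and an adjusted p of 0.531. The other 2 Lifr probes did not show that difference: A_51_P113182 was lower after OHT in every pool, with log2 changes of -0.33 in A2, -0.35 in B2, -0.12 in A1 and -0.44 in B1. A_55_P2159264 was lower too, with -0.18 in A2, -0.11 in B2, -0.01 in A1 and -0.18 in B1. The probes therefore disagree in direction for pool A2, where the brightest one was 0.17 higher with OHT.

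Il6st, whose product gp130 is the signalling chain shared by the IL-6 family, was at 1.65 and 1.61 in pools A2 and B2 with OHT and 1.27 and 1.73 untreated. In pools A1 and B1 it was at 1.87 and 1.79 with OHT and 1.45 and 1.82 untreated. It was higher with OHT in both A pools, by 0.38 in A2 and 0.42 in A1, and slightly lower in both B pools, with -0.13 in B2 and -0.03 in B1. The paired estimates were 0.13 in the labelled knockout (-0.23 to 0.48, adjusted p = 0.620) and 0.19 in the wild type (-0.16 to 0.55, adjusted p = 0.428).

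Jak1, the kinase that gp130 signalling depends on most, was at 2.33 and 2.42 in pools A2 and B2 with OHT and 2.30 and 2.41 untreated, so the labelled knockout arrays differed by at most 0.03 with treatment in a pool. In the wild type it was at 2.26 and 2.58 in pools A1 and B1 with OHT and 1.98 and 2.31 untreated, higher by 0.28 and 0.27. The paired estimate was 0.02 in the labelled knockout (-0.17 to 0.21, adjusted p = 0.882) and 0.27 in the wild type (0.08 to 0.46, adjusted p = 0.0546). Jak1 was higher with OHT in all 4 pools, as were 18.5% of the 14273 genes measured in every pool. The difference of the effects was -0.25 (-0.52 to 0.02, adjusted p = 0.570). Leaving a labelled knockout pool out of the paired fit brought Jak1 in the wild type past the threshold. Of 15182 genes tested, 3385 passed in the wild type without A2 and 3329 without B2. Such an omission keeps the wild type estimate and changes only the spread used and the adjustment. Without A1 or without B1 Jak1 did not pass in the wild type.

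Jak2, the other receptor-bound kinase of the set, was at 0.55 and -0.11 in pools A2 and B2 with OHT and 0.11 and -0.24 untreated, and at -0.37 and 0.12 in pools A1 and B1 with OHT. Untreated it was at -0.54 in B1, while the spot of A1 untreated lay in a dark patch and was left out. It was higher with OHT in all 3 pools that could be compared, by 0.44 in A2, 0.13 in B2 and 0.65 in B1. The paired estimate was 0.29 in the labelled knockout (-0.03 to 0.60, adjusted p = 0.191) and 0.65 in the wild type (0.21 to 1.10, adjusted p = 0.0548), the wild type value from pool B1 alone. Without A2 or without B2 in the fit the wild type change passed the threshold. No spread of Jak2 itself was left in those fits, so the spread was taken wholly from other genes. That pass therefore says nothing about how Jak2 varies between pools. With every spot kept, the patched spot stood at -4.84 and gave 4.47 for pool A1 and a group-mean change of 2.56 in the wild type (adjusted p = 0.938), values that rest on that 1 spot.

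Stat3, the transcription factor at the end of the chain, was measured by a probe printed 10 times per array, so its error within an array is known. Its levels were 3.63 and 3.68 in pools A2 and B2 with OHT and 3.44 and 3.68 untreated, and 3.40 and 3.83 in pools A1 and B1 with OHT and 3.34 and 3.82 untreated. The spots kept on an array had an SD of 0.025 to 0.086, and 2 spots of A2 with OHT and 1 of A1 untreated were left out as dim. Both A1 arrays were below every other array and the 4 A pool arrays were below the 4 B pool arrays. The paired change after OHT was 0.09 in the labelled knockout (-0.09 to 0.28, adjusted p = 0.476) and 0.03 in the wild type (-0.15 to 0.22, adjusted p = 0.829). The second Stat3 probe, A_55_P1991219, gave -0.34 in A2, 0.13 in B2, 0.24 in A1 and 0.16 in B1, so the probes differ in sign for pool A2. Arrays measure mRNA, so the phosphorylation that activates STAT3 was not measured.

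**Figure D2:**
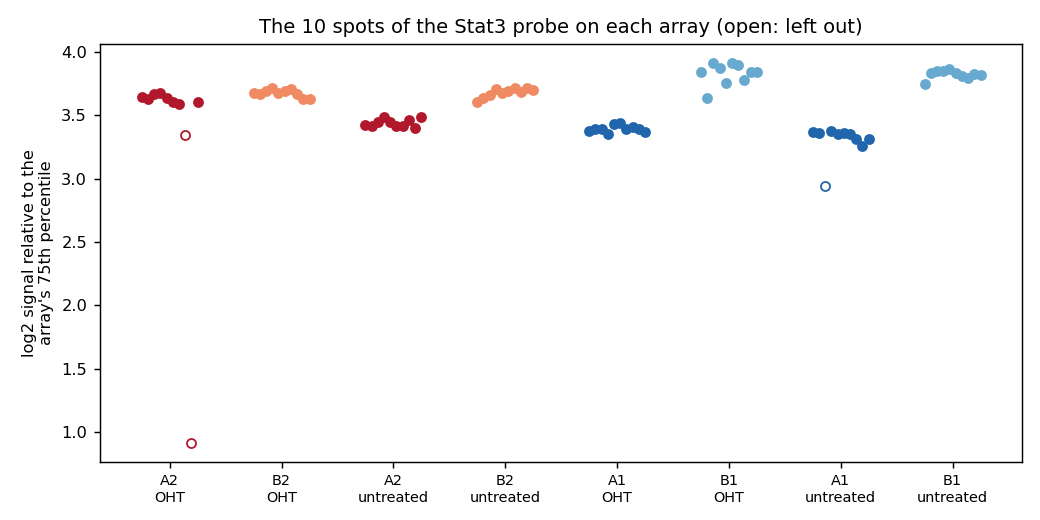
The 10 spots of the brighter Stat3 probe on each array, as log2 signal relative to the array's 75th percentile (vertical axis), by pool and treatment (horizontal axis). Filled points were kept and open points left out; the lowest open point, at 0.91, is on pool A2 with OHT, and the kept spots of an array lie close together, with an SD of at most 0.086.

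Socs3, the inhibitor that STAT3 induces, was at 4.00 and 4.82 in pools A2 and B2 with OHT and 3.94 and 4.97 untreated, and at 4.47 and 4.49 in pools A1 and B1 with OHT and 4.56 and 4.84 untreated. Both A2 arrays were below the 6 others. The paired change was -0.05 in the labelled knockout (-0.25 to 0.16, adjusted p = 0.770) and -0.22 in the wild type (-0.42 to -0.01, adjusted p = 0.133), with OHT values lower in 3 of 4 pools and 0.06 higher in A2. With every spot kept the labelled knockout value was 0.03, of the opposite sign.

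The promoter of Socs3 is shown because its window holds TTCNNNGAA, the letters of the STAT binding motif, a palindrome that reads the same on both strands. RefSeq windows of the 250 bases before a start were matched for all 10 genes, 13 windows in assembly GRCm38.p6. The motif is in 2 of them, 1 of Socs3 and 1 of the 2 windows of Gab1, and in 7.02% of all 32851 windows of that length. The ETS motif CCGGAAGT, read on both strands, is in none of the 13 and in 2.88% of all. Capitals mark the motif, whose first base lies 154 bases before the start in Socs3 (chr11:117969367-117969616, minus strand) and 12 bases before it in Gab1 (chr8:80880480-80880729, minus strand). A match describes the letters and does not show that a factor binds there.

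Socs3 promoter: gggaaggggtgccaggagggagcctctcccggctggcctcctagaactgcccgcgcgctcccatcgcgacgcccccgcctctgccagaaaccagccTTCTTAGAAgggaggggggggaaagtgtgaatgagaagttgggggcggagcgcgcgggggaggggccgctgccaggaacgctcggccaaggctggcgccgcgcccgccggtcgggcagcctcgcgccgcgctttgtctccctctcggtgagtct
Gab1 promoter: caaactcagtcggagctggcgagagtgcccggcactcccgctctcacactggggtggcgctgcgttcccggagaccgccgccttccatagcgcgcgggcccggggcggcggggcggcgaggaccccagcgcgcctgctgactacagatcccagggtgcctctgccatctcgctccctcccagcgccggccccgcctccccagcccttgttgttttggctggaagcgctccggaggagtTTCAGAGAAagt

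Pim1 and Pim3 encode serine/threonine kinases that are known STAT3 targets and support growth and survival. Pim1 was at 0.69 and 0.73 in pools A2 and B2 with OHT and 1.45 and 1.04 untreated, and at 0.99 and 1.26 in pools A1 and B1 with OHT and 1.72 and 1.25 untreated. Both labelled knockout arrays with OHT were below the 6 others, an order whose share over all genes was not computed. The change was -0.76 in A2, -0.31 in B2 and -0.73 in A1, against 0.01 in B1. The paired estimate was -0.53 in the labelled knockout (-0.99 to -0.08, adjusted p = 0.109), a fold of 0.690, and -0.36 in the wild type (-0.81 to 0.09, adjusted p = 0.248), a fold of 0.779.

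Pim3 was at 2.75 and 3.27 in pools A2 and B2 with OHT and 2.92 and 3.76 untreated, and at 3.58 and 3.35 in pools A1 and B1 with OHT and 3.55 and 3.72 untreated. Both A2 arrays were below the 6 others, as for Socs3. The paired change was -0.33 in the labelled knockout (-0.60 to -0.06, adjusted p = 0.0973) and -0.17 in the wild type (-0.44 to 0.10, adjusted p = 0.356), with lower OHT values in 3 of 4 pools and 0.02 more in A1.

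Gab1, the adaptor gene, had a similar difference with OHT in each pool. It was at 2.44 and 3.38 in pools A2 and B2 with OHT and 2.74 and 3.59 untreated, and at 2.87 and 3.21 in pools A1 and B1 with OHT and 3.07 and 3.44 untreated. The OHT array was lower in all 4 pools, with log2 changes of -0.30 in A2, -0.21 in B2, -0.20 in A1 and -0.23 in B1. Of the 14273 genes measured in every pool, 27.8% were lower with OHT in all 4. The paired estimate was -0.26 in the labelled knockout (-0.44 to -0.08, adjusted p = 0.0605) and -0.22 in the wild type (-0.40 to -0.04, adjusted p = 0.0928), and their difference was -0.04 (-0.29 to 0.21, adjusted p = 0.937).

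**Figure D3:**
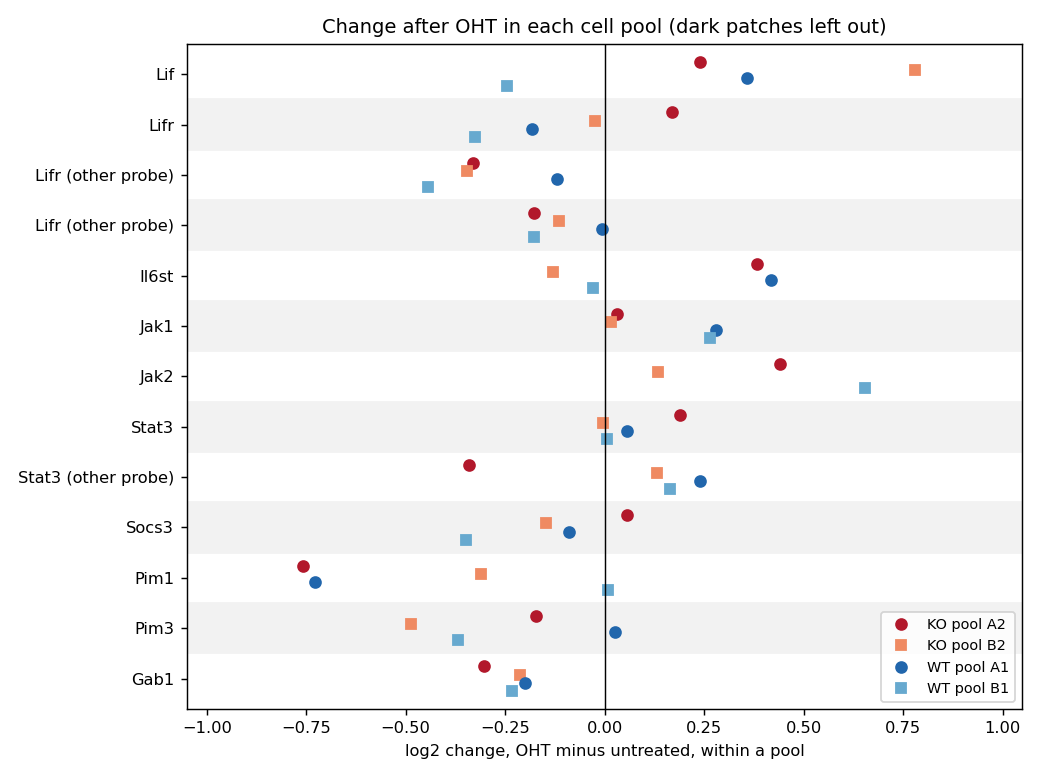
Log2 change with OHT against untreated within each pool (horizontal axis) for the 13 probes of the 10 genes (rows), dark patches left out. Red and orange points are labelled knockout pools A2 and B2 and blue points wild type pools A1 and B1; Gab1 lies left of 0 in all 4 pools, from -0.30 to -0.20, and Il6st lies right of 0 in the A pools, A2 and A1.

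Between genotypes, the group-mean fit with OHT gave differences, labelled knockout minus wild type, from -0.38 for Pim3 to 0.63 for Lif, whose B1 array was not well above background. Lif was tested only because it met the filter in the labelled knockout with OHT, which favours that difference. Untreated, the differences ran from -0.31 for Pim3 to 0.20 for Jak1, leaving aside the 2.62 of Jak2 that rests on its dim A1 spot. With the replicate number as a block 0 of the 10 genes passed here too. For Pim1 and Il6st the labelled knockout pool was lower than the wild type pool of the same letter at both treatments. The share of all genes with that order was not computed. For Pim1 the differences with OHT and untreated were -0.30 and -0.27 for A2 minus A1, and -0.53 and -0.21 for B2 minus B1. For Il6st they were -0.21 and -0.18 for A2 minus A1, and -0.18 and -0.08 for B2 minus B1. Pool B2 was on slide 1 and pool B1 on slide 2, so genotype and slide cannot be told apart in B2 minus B1.

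Within the labelled knockout, 4 genes were lower in A2 than in B2 by more than the genotypes differed, at both treatments. The log2 difference A2 minus B2, with OHT and untreated, was -0.96 and -1.16 for Lifr, -0.82 and -1.02 for Socs3, -0.93 and -0.84 for Gab1 and -0.52 and -0.83 for Pim3. Jak2 was higher in A2, by 0.66 and 0.35. Lif was higher in A2 by 0.90 with OHT and higher untreated, where B2 was not well above background. For Lif too, the pools differed by more than the genotypes did. Pim1, Stat3 and Il6st with OHT were close between the pools, with differences of -0.03, -0.04 and 0.05, and Jak1 differed by -0.10 with OHT and -0.11 untreated. Erf differed by -1.45 and -2.18 between the same pools. These are differences between mixes of clones with 1 array per treatment, for which no test was run.

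**Figure D4:**
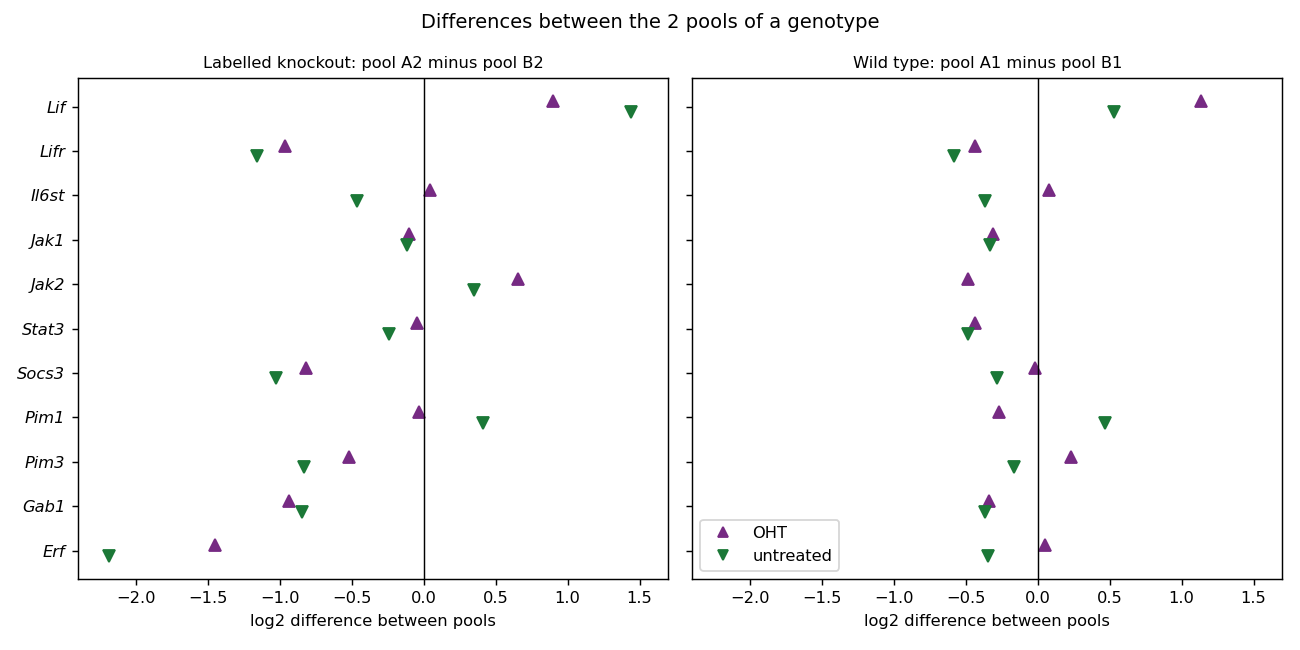
Log2 difference between the 2 pools of a genotype (horizontal axis), A2 minus B2 on the left and A1 minus B1 on the right, for the 10 genes and Erf (rows). Upward triangles are OHT arrays and downward triangles untreated arrays. For Lif, B2 untreated and both B1 arrays were not well above background, and Lifr, Socs3, Pim3, Gab1 and Erf lie left of 0 at both treatments between A2 and B2.

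For 4 of the 10 genes, Lifr, Socs3, Pim3 and Gab1, both A2 arrays were below the 6 others, as for 19.5% of all genes. In 6 of the 10 (Lifr, Jak1, Stat3, Socs3, Pim3 and Gab1) both A2 arrays were below both B2 arrays, as for 39.1% of genes, and in Lif and Jak2 both were above, as for 24.5%. Against wild type pool A1, both A2 arrays were below for Lifr, Socs3, Pim3 and Gab1, as for 29.7% of genes, and above for Lif, Jak1 and Stat3, as for 23.1%. Within the wild type both A1 arrays were below both B1 arrays for Lifr, Jak1, Stat3 and Gab1, as for 32.5% of genes, and above for Lif, as for 20.9%. Lifr, Stat3 and Gab1 had all A pool arrays below all B pool arrays, as 16.8% of genes did. Wild type pools A1 and B1 were on different slides, so pool and slide cannot be told apart there, while all labelled knockout arrays shared slide 1.

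Some cell markers set pool A2 apart as well. Of 10 trophoblast markers, 5 (Cdx2, Eomes, Hand1, Krt8 and Krt18) were higher on both A2 arrays than on the 6 others. The share of all genes with that order was not computed. Tfap2c and Gata2 were highest in A1 with OHT, at 4.56 and 0.77, against 3.31 and 0.07 in A2 with OHT. Elf5 was well above background on none. The summed signal of the 10 markers, in units of the array's 75th percentile, was 376 in A2 with OHT and 347 in A2 untreated. On the other arrays it was 32.5 to 131. Most of that sum is Krt8 and Krt18. Without these keratins, left out after their values were seen, it was 25.4 and 25.9 in A2 and 16.4 to 37.8 elsewhere, so A2 was no longer the highest. Of the 9 ES cell markers measured on all arrays (all but Zfp42), 4 were lower on both A2 arrays than on the others. These were Pou5f1, Sox2, Esrrb and Fgf4, while Dppa5a was higher. Of all genes, 19.5% had both A2 arrays below the 6 others. The sum of the 9 ES cell markers was 309 and 330 in A2 with OHT and untreated, against 421 to 560 elsewhere. Over the markers measured on all 8 arrays, sums were 37.9 and 21.7 in A2 with OHT and untreated and 15.3 to 31.2 elsewhere for 9 fibroblast or feeder markers (Lum well above background on none). For 9 primitive endoderm markers they were 18.5 and 15.0 in A2 and 23.3 to 57.8 elsewhere. For 9 blood markers they were 8.67 and 7.13 in A2 and 4.97 to 7.29 elsewhere, with Cd53 well above background on none. The part of these markers in the lower Lifr, Socs3, Pim3 and Gab1 of pool A2 was not tested. In whole cultures, fewer cells that express a gene and less of its RNA per cell cannot be told apart.

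Lifr had the largest SD over the 8 arrays, 0.45, among the members well above background on all of them. The genes whose levels were most like those of Lifr over the 8 arrays, of 12645 such genes, were Gm32474 (Pearson r 0.990), Setd5 (0.983), Slc17a9 (0.983), Polr3gl (0.982) and Retsat (0.982). The arrays share pools, so these correlations follow the order of the pools and are given as a description.

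Beside the 10 genes, other genes of the pathway were read from the same fits. Their lists were chosen with earlier results of these data known, so the counts are a description. In limma on the group means, 0 of the 62 genes tested in the wider lists passed after OHT in either genotype. The counts that follow are from the paired fit, in which 4.52% of all genes were higher and 10.4% lower in the labelled knockout and 7.88% higher and 9.97% lower in the wild type.

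Among 12 IL-6 family ligands and receptors tested, 1 rose and 1 fell in the labelled knockout and 0 rose and 2 fell in the wild type. Osmr, the oncostatin M receptor chain that also pairs with gp130, rose by 0.88 in the labelled knockout (adjusted p = 0.0334). In the wild type Osmr was 0.64 higher (adjusted p = 0.0811). Cntfr, the receptor chain for ciliary neurotrophic factor, fell by 1.49 in the wild type (adjusted p = 0.0117) and was -0.13 in A2 and -1.17 in B2. Without a pool the wild type count was 0 without A1 and 1 without B1.

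Of 7 other JAK and STAT genes, 2 rose in the labelled knockout, Stat5b by 0.49 (adjusted p = 0.0474) and Stat2 by 0.42 (adjusted p = 0.0486), and Jak3 rose in the wild type by 0.58 (adjusted p = 0.0180). In the other genotype, where none passed, the changes were 0.38 for Stat5b, 0.37 for Stat2 and 0.22 for Jak3. No call of these genes remained without either pool of its genotype.

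Of 16 inhibitors and phosphatases, 0 rose and 3 fell in the labelled knockout and 2 rose and 3 fell in the wild type. Socs2, another inhibitor of JAK signalling, fell by 0.39 in the labelled knockout (adjusted p = 0.0275) and fell by 0.37 in the wild type (adjusted p = 0.0268). Pias2, an inhibitor of STAT factors in the nucleus, fell by 0.36 and Ptpn2, a phosphatase acting on JAK1, fell by 0.34 in the labelled knockout. Their wild type changes were 0.04 and -0.14. In the wild type Sh2b3, an adaptor that restrains JAK2, fell by 0.55, Socs1 fell by 0.47, and Socs7 rose by 0.43. Their labelled knockout changes were -0.37, -0.51 (pool B2 alone) and 0.06. Ptpn6, a phosphatase that rose by 0.34 in the wild type and was 0.14 in the labelled knockout, was named after its value was seen. These counts were 0 in the labelled knockout without any 1 of the 4 pools, and 0 in the wild type without A1 or without B1.

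Of 9 adaptors and genes of parallel branches, 1 rose and 2 fell in each genotype, and those that fell were Pim2 and Shc1 in both. Pim2, a kinase related to Pim1 and Pim3, fell by 1.62 in the labelled knockout (adjusted p = 0.00385), a value from pool B2 alone because the A2 spot lay in a dark patch, and fell by 1.84 in the wild type (adjusted p = 0.000267). Shc1, an adaptor toward RAS, fell by 0.39 in the labelled knockout and fell by 0.34 in the wild type. Without 1 pool the count was 2 or 3 in the labelled knockout and 1 to 4 in the wild type, 1 of them without B1.

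STAT3 target genes, the largest of these lists, held the most calls. Of 18 tested, 3 rose and 6 fell in the labelled knockout, and 4 rose and 5 fell in the wild type. Since the list was chosen with earlier results of these data known, these counts do not test the pathway. Gbx2, a homeobox factor of ES cells, fell by 2.17 in the labelled knockout (adjusted p = 0.00482) and fell by 2.54 in the wild type (adjusted p = 0.00123). Cebpd, a leucine zipper factor, fell by 0.83 in the labelled knockout and fell by 1.01 in the wild type. Mcl1, a survival factor, fell by 0.40 in the labelled knockout and fell by 0.50 in the wild type. Timp1, an inhibitor of metalloproteinases, rose by 0.48 in the labelled knockout and by 0.58 in the wild type. Myc fell by 1.27 in the labelled knockout and fell by 2.36 in the wild type. Other genes that passed are named after their values were seen. Tfcp2l1, a factor of the naive state, rose by 1.10 in the labelled knockout and by 1.40 in the wild type, and Pramel7 rose by 1.17 in the labelled knockout and by 1.67 in the wild type. Irf1 fell by 0.30 in the labelled knockout and fell by 0.56 in the wild type. Kdm3a, a histone demethylase, rose by 0.40 in the wild type and Bcl3 fell by 0.35 in the labelled knockout. In the other genotype Kdm3a was 0.13 higher and Bcl3 0.20 higher, and neither passed.

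The list therefore moved in both directions and its median, -0.30 in the labelled knockout and -0.25 in the wild type, stood beside -0.04 for all genes in each genotype. In no list did any difference of effects between genotypes pass. The STAT3 target count was 4 without A2, 2 without B2 and 6 without A1 or without B1 in the labelled knockout, and 4 without A1, 5 without B1, 10 without A2 and 11 without B2 in the wild type. The calls of the wider lists rest on the variance model and on leaving out dark patches. With pools as blocks and dark patches left out but the standard variance, 0 STAT3 targets passed in the labelled knockout and 2 in the wild type. With trended, robust variance but every spot kept, 375 of 15182 genes passed in the labelled knockout and 1454 in the wild type. The paired fit held 2259 and 2710. IL-6 family calls were then 0 in the labelled knockout and 1 in the wild type. With pools as blocks alone, 0 genes passed after OHT in either genotype.

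**Figure D5:**
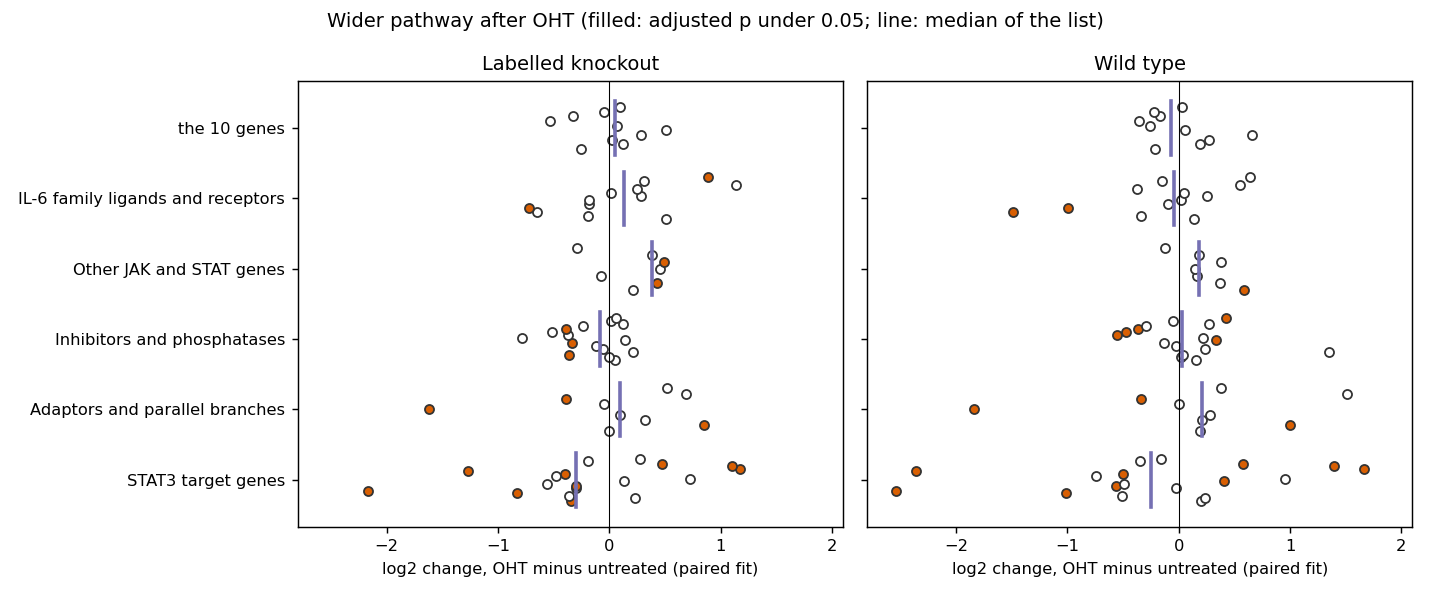
Log2 change with OHT against untreated in the paired fit (horizontal axis) for the 10 genes and 5 lists of other pathway genes (rows), in the labelled knockout on the left and the wild type on the right. Filled points have an adjusted p under 0.05 and vertical lines are list medians. The 10 genes hold no filled point, while the STAT3 targets hold 9 in each genotype. The lists were chosen with earlier results of these data known.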

How the data were processed

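Cy3-labelled RNA from each of the 8 ES cell samples was put on an array of its own, per the labels. Deposited scanner output gives the intensity of each spot as made by Agilent Feature Extraction 11.5.1.1, background-subtracted and detrended within the array but not scaled between arrays, per the file headers. Flags for spots well above background or non-uniform came from the same files. A deposited value table of the series was not used. No source used here states how the authors normalised further.

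Without control and non-uniform spots, repeated spots were averaged, and log2 of the intensity minus the array's 75th percentile was analysed. Probe accessions named 28026 of 55681 probes by way of RefSeq (GRCm38.p6), which also gave the promoter windows, and 27655 had no name. Testing required signal well above background on 2 arrays of some group, and each gene kept its brightest probe. Groups, replicates and pools came from titles and source names.

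Group means were compared by lmFit and eBayes of limma 3.58.1 under R 4.3.3 (two-sided, Benjamini-Hochberg over 15182 genes, threshold 0.05). In the paired fit the 4 pools were blocks, spots in dark patches (median log2 deviation of the 25 nearest spots below -0.5) were dropped and the variance was trended and robust. Pairing follows from the source names: deviations of same-numbered replicates correlated at 0.705 in the labelled knockout and 0.748 in the wild type, against 0.404 to 0.557 across genotypes. The labels call the samples replicates. The paired p-values use a spread of OHT responses that the genotypes share, with 2 pools in each. Where a dark patch left a genotype 1 pool for a gene, that genotype added nothing to the spread. Examples are Jak2 in the wild type and Pim2 in the labelled knockout. Only 8 arrays limit the precision. The fits were tested on simulated data. Alternatives changed the background correction (normexp, offset 50), normalisation, filter, probe choice, blocks and arrays.

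The 10 genes and the lists were chosen with earlier results of these data known. All 10 genes are named, and of the other lists up to 4 passing genes per comparison with the smallest p. Some genes that this rule names are not reported here. Figures used matplotlib 3.10.9 under Python 3.11.15.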

Additional observations from a re-analysis of the deposited data

Results flagged for a closer look

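The change of Lifr after OHT was 0.41 higher in the labelled knockout than in the wild type on the log2 scale, with every spot kept. It stands out because both labelled knockout pools were higher with OHT, A2 by 0.28 and B2 by 0.02, and both wild type pools lower, A1 by -0.21 and B1 by -0.33. In limma the difference had an adjusted p of 1.00 on the group means, and with pools as blocks and dark patches left out it was 0.33 with an adjusted p of 0.531. There B2 was at -0.03, and the other 2 Lifr probes were lower with OHT in all 4 pools.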

How the results depend on the processing

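No member passed in any of the 5 comparisons under any alternative except the omission of a labelled knockout pool from the paired fit. Without A2 or without B2, Jak1 and Jak2 passed in the wild type. The members called there ranged from 0 to 2 over all omissions. Of 15182 genes tested, 3385 passed in the wild type without A2 and 3329 without B2. The 2 calls therefore do not set the members apart from other genes. The fits without A2 or without B2 left no spread for Jak2 itself, so its spread was taken wholly from other genes. With the replicate block alone 0 members passed in each comparison, and the block changed no member's call. Of 304 single log2 changes under alternatives other than omissions, 299 kept their sign and 5 reversed, for causes that were not tested. They were Lif in the wild type, -0.36 with normexp background correction, Lifr in the labelled knockout, -0.063 with the mean over its probes, and Socs3 in the labelled knockout, -0.046 with dark patches left out, also with the replicate block and in the paired fit. Leaving out dark patches raised the 75th percentile by 0.11 in A2 with OHT and by 0.049 in B2 with OHT, which lowers every remaining level there by as much. Of 282 values with 1 array or pool left out, 26 reversed. Over these omissions the labelled knockout change ran from -0.13 to 1.30 for Lif, -0.43 to 0.73 for Lifr, -0.13 to 0.44 for Il6st, -0.0042 to 0.29 for Stat3, -0.49 to 0.54 for Socs3, -0.68 to 0.16 for Pim3 and -0.62 to 0.25 for Gab1. The wild type change ran from -0.52 to 0.61 for Lif, -0.54 to 0.0082 for Lifr, -0.028 to 0.42 for Il6st, -0.21 to 0.25 for Stat3, -0.73 to 0.0094 for Pim1 and -0.37 to 0.025 for Pim3, and the Lifr difference of effects from -0.17 to 1.00. An arm left with 1 array was assumed to vary like the other groups. Signal limits Lif, which was well above background on 5 of 8 arrays. The pool omissions, the replicate block with dark patches left out and the replicate block with trended and robust variance were added after the data were seen.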
